A study of Mus musculus with 20 samples.

Results

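The 7 adrenergic receptor genes that the mouse reference of these data lists by the names Adra1a, Adra1b, Adra1d, Adra2a, Adra2b, Adra2c and Adrb1 were followed through single nuclei RNA-sequencing of the hippocampus of 20 male mice. They are 7 of 32285 genes in the deposited count matrices and were chosen by name, as the family that holds the target of xylazine. For each gene, molecules counted by unique molecular identifiers (UMIs) were summed per mouse over all 160777 nuclei and over nuclei of each cell class, and compared by state and genotype. The mice were 4.5 to 5.5 months old and carried the APPSwe/PS1ΔE9 transgenes (APP/PS1) or were their wild-type littermates (WT). By the labels, 6 WT and 3 APP/PS1 mice were awake (Awake), 3 WT and 4 APP/PS1 mice had 3 h of isoflurane at 5% reduced to 1.5% (ISO), and 2 WT and 2 APP/PS1 mice had 3 h of ketamine at 150 mg/kg with xylazine at 12 mg/kg (KETA). These group sizes are counted from the sample labels, and the series' own design text divides the 20 mice differently. ISO mice received no xylazine, and all KETA mice received ketamine and xylazine together, so effects of these agents cannot be told apart. Mice are numbered as in the labels, and each is a separate animal with its own library.

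The receptors fall into families that couple to different G proteins. Alpha1 receptors (Adra1a, Adra1b, Adra1d) couple to Gq and phospholipase C, alpha2 receptors (Adra2a, Adra2b, Adra2c) couple to Gi and lower cyclic AMP, and beta receptors (Adrb1) couple to Gs and raise it. In the hippocampus the ligand noradrenaline comes mainly from axons of the locus coeruleus, whose cell bodies lie outside the dissected tissue. Xylazine is an alpha2 agonist used with ketamine in veterinary anesthesia, and alpha2 receptors on noradrenergic axons restrain noradrenaline release. Nuclei hold RNA of the cells in the tissue and not of incoming axons.

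Each mouse gave 4743 to 10877 nuclei and 9243992 to 25394891 UMIs, with a median of 1235 to 3169 UMIs per nucleus. Several features of the libraries touch the results below. Mice 1 to 4 stood apart, with a mitochondrial share of 0.939% to 1.78% against 0.0353% to 0.336% elsewhere and with clusters largely of their own. All 4 KETA mice (25 to 28) fall in the run of mouse numbers 25 to 29, which holds a single other mouse, awake mouse 29, so KETA and this run can hardly be told apart. A fit with the runs as a block sets KETA against that mouse alone and is not used for KETA. Prnp, whose promoter type drives the transgenes, overlapped between libraries labelled WT (42.2 to 195.7 UMIs per 1e6, CPM) and those labelled APP/PS1 (63.6 to 433 CPM), with mice 11, 14, 17 and 20 lying against their label within their runs. Genotype is therefore written as labelled, and calls are also given without those 4 mice. Leaving them out also added calls of Adra1b in all nuclei for KETA and for ISO against Awake and of Adra2c in all nuclei for KETA against ISO, in tests described below. At most 35 nuclear barcodes were shared by any pair of libraries, at most 0.407% of the smaller library. The activity-regulated gene Npas4 separated the states, at 5.40 to 8.56 CPM in Awake, 1.48 to 2.73 CPM in ISO and 0.433 to 1.04 CPM in KETA mice. Arc was higher in Awake (3.77 to 16.5 CPM) than in ISO (0.947 to 3.09 CPM) and KETA mice (0.481 to 1.85 CPM), which overlapped, while Fos overlapped between all states and had its highest median in KETA mice (33.1 CPM against 6.68 in Awake and 1.40 in ISO). KETA mouse 25 stood apart in depth, with a median of 7078 UMIs per CA1-like nucleus against 2580 to 2855 in the other KETA mice, and 1624 per astrocyte-like nucleus against 764 to 893.5.

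The promoters of Adra2a and Adrb1 are shown, since among the 5 members with a promoter in the reference table they alone hold the letters TGACG (or CGTCA on the other strand), the core of the cyclic AMP response element, and since both receptors act on cyclic AMP. The sequences are from RefSeq on build GRCm38.p6, plus strand, 300 bases each around the start that RefSeq annotates, with TGACG in capitals. These starts differ from those of the gene models given below, which are from another annotation. The Adra2a window is chr19:54045009-54045308 and the Adrb1 window is chr19:56721867-56722166.
Adra2a: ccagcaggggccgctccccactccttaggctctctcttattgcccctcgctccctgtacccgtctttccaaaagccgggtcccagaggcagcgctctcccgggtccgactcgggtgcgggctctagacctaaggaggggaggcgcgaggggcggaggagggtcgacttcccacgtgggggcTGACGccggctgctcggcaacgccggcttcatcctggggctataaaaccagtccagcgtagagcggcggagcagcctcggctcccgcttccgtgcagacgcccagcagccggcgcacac
Adrb1: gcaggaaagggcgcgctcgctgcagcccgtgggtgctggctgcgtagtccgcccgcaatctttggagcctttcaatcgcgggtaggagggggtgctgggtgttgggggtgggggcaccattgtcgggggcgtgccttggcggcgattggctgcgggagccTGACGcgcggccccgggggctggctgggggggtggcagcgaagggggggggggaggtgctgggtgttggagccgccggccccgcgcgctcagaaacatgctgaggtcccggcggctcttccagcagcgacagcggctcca
The TGACG core, searched on both strands, is in 20.8% of 32851 promoters of the same length, and the full element TGACGTCA, which contains it, is in 1.79% of them and in no member promoter. The Adra2a window also holds 1 E-box (CACGTG), 1 GC box (GGGCGG or CCGCCC) and 1 TATA box (TATAAA or TTTATA), which are in 7.15%, 35.7% and 13.6% of promoters. The Adrb1 window holds 1 GC box and neither of the other motifs. These are matches of letters only.

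The gene models differ in how much intron they offer to a count that includes introns. On GRCm38, Adra1a (chr14:66635251-66771168, plus strand) spans 135918 bases of which 6.42% are exonic, and Adra1b (chr11:43774606-43901210, minus strand) spans 126605 bases of which 2.67% are exonic. Adra1d lies at chr2:131545850-131562283 on the minus strand, with the antisense gene Gm14285 overlapping it. The alpha2 genes are exonic over their whole merged span, with Adra2a at chr19:54044151-54048982, Adra2b at chr2:127363208-127367221 and Adra2c at chr5:35278319-35281763, all on the plus strand. Adrb1 lies at chr19:56722199-56733113, plus strand. Levels are therefore compared within a gene and not between genes.

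Counts of the members were low. Summed over all nuclei of all mice there were 9311 UMIs of Adra1a, 1376 of Adra1b and 1102 of Adra1d. The alpha2 genes had 380 UMIs for Adra2a, 23 for Adra2b and 1506 for Adra2c, and Adrb1 had 6489. Per mouse, Adra1a stood at 26.2 ± 5.22 CPM (mean ± SD, n = 20) and Adrb1 at 17.9 ± 3.14 CPM. Adra2a stood at 1.00 ± 0.525 CPM and Adra2c at 3.99 ± 2.68 CPM.

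Cell classes were rebuilt by clustering without the members and named from marker genes, so they are written as "like" and may differ from the study's own annotation. Classes neighbouring in the order of mean level were compared over mice by a two-sided paired permutation test, adjusted over 63 comparisons. Of the alpha1 receptors, Adra1a had its highest levels in OPC-like nuclei (oligodendrocyte precursors), at 127 ± 46.4 CPM (range 56.1 to 241.6), in GABAergic-like nuclei at 120.4 ± 29.8 CPM (74.6 to 188.6) and in astrocyte-like nuclei at 93.5 ± 35.2 CPM. Over all 20 mice the first 2 did not differ beyond their spread (adjusted permutation p = 1), but these means join states with opposite orders, since GABAergic-like nuclei had 143.7 and OPC-like 95.7 CPM in Awake mice, against 101.1 and 162.6 CPM in ISO and 101.6 and 135.1 CPM in KETA mice, and the order within a state was not tested. Over all mice GABAergic-like and astrocyte-like nuclei were not separated either (adjusted permutation p = 0.184), and their means too stood in another order in KETA, where astrocyte-like nuclei had the highest of the 3 (139.8 CPM, against 84.4 in Awake and 78.8 in ISO mice). Fibroblast-like nuclei (66.4 ± 35.5 CPM in 14 mice) were not separated from astrocyte-like ones (adjusted permutation p = 0.537). They had a mean of 90.4 CPM in 6 Awake, 55.4 in 4 ISO and 41.4 in 4 KETA mice. The class joins a cluster with 837 WT-KETA nuclei (7.76% of that group) but at most 0.0483% of the nuclei of any other group. The part of this cluster in the KETA mean was not tested. Fibroblast-like nuclei were above CA1-like nuclei (18.9 ± 7.80 CPM) in 12 of 14 mice (adjusted permutation p = 0.00486). CA1-like were above subicular or cortical excitatory-like nuclei (8.54 CPM) in 16 of 20 (adjusted permutation p = 0.00277). In DG granule-like nuclei Adra1a was at 1.10 CPM and in CA3-like nuclei at 1.46 CPM, the lowest of the 10 classes, and these were not separated from each other. Nuclei with at least 1 Adra1a UMI made up 22.5% of GABAergic-like nuclei (median 2446 UMIs per nucleus), 13.5% of OPC-like (1057 UMIs) and 8.47% of astrocyte-like (935 UMIs), against 0.182% of oligodendrocyte-like (756 UMIs) and 0.216% of DG granule-like nuclei (1718 UMIs). With each nucleus thinned to 1000 UMIs, which left out 667, 1826 and 11557 shallower nuclei of the first 3 classes, the shares were 11.2%, 11.5% and 7.69%, against 0.322% and 0.0851%.

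Of the 4 groups of GABAergic-like nuclei compared, Adra1a was highest in the Lamp5 group, which in the hippocampus includes neurogliaform cells. Its level there was 385.8 ± 113.8 CPM (n = 20), above 81.6 ± 28.6 CPM in the Sst group in 20 of 20 mice (adjusted permutation p = 0.00021 over 21 comparisons). The Sst, Pvalb (77.1 ± 21.0 CPM) and Cnr1/Cck (73.1 ± 24.3 CPM, n = 15) groups were not separated.

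In rarer classes, pooled over mice and with no test, Adra1a was at 49.96 CPM in ependymal-like nuclei (43 UMIs, 95% exact Poisson interval 36.2 to 67.3) and at 29.4 CPM in mural-like nuclei (14 UMIs, 16.1 to 49.3). These intervals cover counting error only.

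Adra1b was highest in GABAergic-like nuclei at 20.4 ± 7.80 CPM, above the 5.65 ± 3.75 CPM of subicular or cortical excitatory-like nuclei in 20 of 20 mice (adjusted permutation p = 0.0001575). The other classes followed at 0.481 to 4.17 CPM with no neighbours separated. Of its 1376 UMIs, 190 came from an unnamed cluster of 3727 nuclei led by Klhl1 and Slc17a6 (17.7 CPM, 83 of the UMIs from mouse 14) and 48 from an unnamed cluster of 572 nuclei led by Slc47a1 and Cdh1 (53.2 CPM, 95% exact Poisson interval 39.2 to 70.6, counting error only). Adra1d was highest in the principal neurons of the hippocampus, at 5.33 ± 2.04 CPM in CA3-like, 4.62 ± 1.21 in DG granule-like and 4.23 ± 1.43 in CA1-like nuclei, and CA1-like nuclei exceeded GABAergic-like ones (1.48 ± 1.24 CPM) in 20 of 20 mice (adjusted permutation p = 0.0001575). These means join states. CA3-like, DG granule-like and CA1-like nuclei had 6.1, 4.4 and 4.6 CPM in Awake, but 3.4, 4.6 and 5.6 CPM in KETA mice. The order within a state was not tested.

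Among the alpha2 receptors, the family xylazine acts on, Adra2a was highest in fibroblast-like and astrocyte-like nuclei. It reached 5.19 ± 3.25 CPM in astrocyte-like nuclei (127 UMIs, present in 20 of 20 mice) and was above oligodendrocyte-like nuclei (1.14 CPM) in 19 of 20 mice (adjusted permutation p = 0.0001575). Fibroblast-like nuclei had 7.18 ± 7.94 CPM on 14 UMIs and were not separated from them, and at Leiden resolution 2 (4.57 CPM) or with each nucleus classed by its own markers (2.32 CPM) they fell below astrocyte-like nuclei, and the remaining classes lay at 0.311 to 0.722 CPM. Adra2c was spread over the 10 classes at 2.05 ± 1.20 CPM (CA3-like) to 5.78 ± 5.99 CPM (CA1-like), with no neighbours separated. Free RNA in droplets would also give similar low levels in every class, and its part was not tested. Adra2b gave 1 UMI in OPC-like and 1 in oligodendrocyte-like nuclei, both in mouse 16, and 0 in the other 8 classes. In DG granule-like nuclei a count of 0 allows up to 0.0364 CPM by a limit of 3 UMIs and up to 0.0447 CPM by the 95% exact Poisson interval, for counting error only. Of its 23 UMIs, 16 lay in the unnamed cluster led by Klhl1 and Slc17a6 (1.49 CPM, 7 UMIs from mouse 14).

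Adrb1 was highest in microglia-like nuclei at 55.8 ± 29.7 CPM (n = 18), above astrocyte-like nuclei (32.7 ± 12.7 CPM) in 13 of 18 mice (adjusted permutation p = 0.0245). Astrocyte-like nuclei were above CA1-like nuclei (20.3 ± 5.39 CPM) in 16 of 20 mice (adjusted permutation p = 0.00486). Subicular or cortical excitatory-like (19.0 CPM), GABAergic-like (18.4 CPM) and DG granule-like nuclei (15.1 ± 3.56 CPM) followed CA1-like nuclei with no neighbours separated, and DG granule-like were above CA3-like nuclei (9.10 ± 4.28 CPM) in 19 of 20 mice (adjusted permutation p = 0.0001575). Nuclei with an Adrb1 UMI made up 5.87% of microglia-like nuclei (4.14% thinned to 1000 UMIs, median 766 UMIs per nucleus) against 0.352% of oligodendrocyte-like ones (0.346% thinned). Thinning left out 2479 of 3543 microglia-like and 11874 of 15918 oligodendrocyte-like nuclei. In deeper classes the share was 6.22% of CA1-like (2.13% thinned) and 5.35% of GABAergic-like nuclei (1.98% thinned). Adrb1 was measured at 9.10 CPM or more in all 5 neuronal classes as well as in astrocyte-like nuclei.

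**Figure D1:**
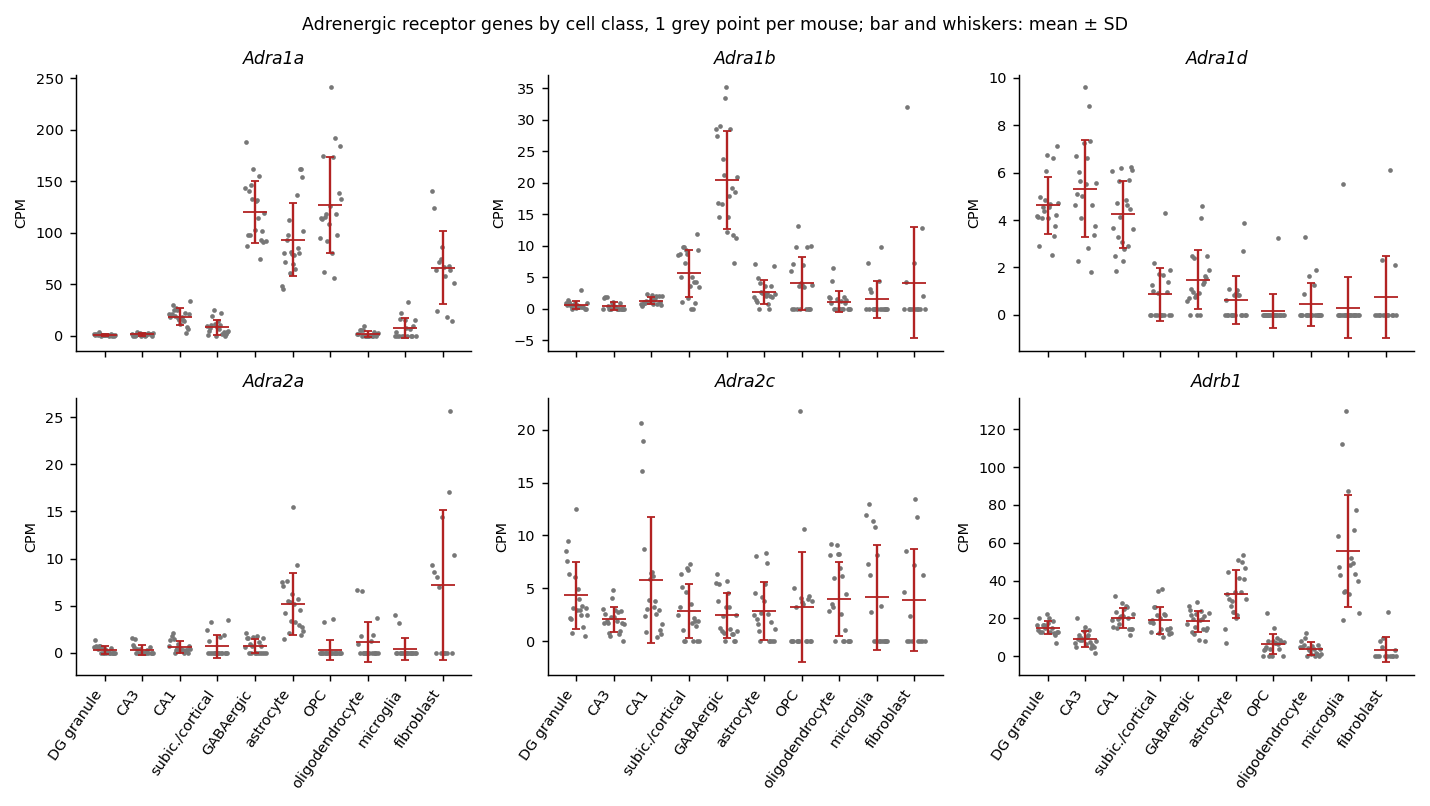
Level of 6 members (CPM, UMIs of the gene scaled to the UMIs of the class in that mouse, linear vertical axes) in 10 cell classes; each grey point is 1 mouse with at least 50 nuclei of the class and the red marks are mean ± SD. With the states joined, Adra1a is highest in OPC-like (127 CPM) and GABAergic-like nuclei (120.4 CPM), whose order differs between Awake and anesthetized mice. Adra1b is highest in GABAergic-like (20.4 CPM) and Adrb1 in microglia-like nuclei (55.8 CPM). Adra1d is highest in CA3-like nuclei (5.33 CPM), which in KETA mice lie below DG granule-like and CA1-like ones. For Adra2c no classes neighbouring in the order of means were separated, and classes further apart were not compared.

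Across the 10 classes, the genes whose mean level was most like that of a member (Pearson r of log2(mean CPM + 1), a description over classes that share libraries) were led by Gpc6 (r = 0.949) for Adra1a and by 4930590J08Rik (r = 0.956) and Vash2 (r = 0.945) for Adra1b. They were led by Tnfrsf9 (r = 0.952) for Adra1d, Ptcd1 (r = 0.894) for Adra2c and Hinfp (r = 0.957) for Adrb1. Each r is among the highest found in a search of all genes at 5 CPM or more in some class. With 10 points each, these values were not tested. Adra2a and Adra2b had too few UMIs for this description.

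States were compared with edgeR's quasi-likelihood test on counts summed per mouse, in all nuclei and in 7 classes, with Benjamini-Hochberg adjustment over all genes of a stratum and a threshold of 0.05. The members passed the low-count filter in 22 combinations of member and stratum, with 6 members in all nuclei (not Adra2b), 4 in CA1-like, 3 each in DG granule-like, GABAergic-like and astrocyte-like, 2 in CA3-like, 1 in OPC-like and 0 in oligodendrocyte-like nuclei. In KETA against Awake 3 of the 22 were called, 2 higher and 1 lower. Of all genes tested, 12.4% were called in all nuclei, 12.3% in DG granule-like, 10.5% in CA1-like, 5.04% in CA3-like, 4.07% in GABAergic-like, 7.81% in astrocyte-like, 3.45% in oligodendrocyte-like and 0.871% in OPC-like nuclei. In ISO against Awake 1 of 22 was called, against 6.27%, 2.53%, 7.56%, 1.91%, 2.31%, 7.19%, 6.19% and 0.554% of all genes in the same strata. In KETA against ISO 3 of 22 were called, 2 higher and 1 lower, against 8.77%, 4.9%, 8.54%, 3.05%, 2.01%, 8.96%, 4.59% and 0.449%. With 22 combinations, several of them from 1 gene, these counts are not read as a difference from the shares of all genes. At an unadjusted p under 0.05 the counts were 14, 7 and 9 of 22. The share of all genes at that threshold is not given here, so these counts are not read as a result about the members. The first 2 comparisons share the Awake mice and the last shares mice with both.

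**Figure D2:**
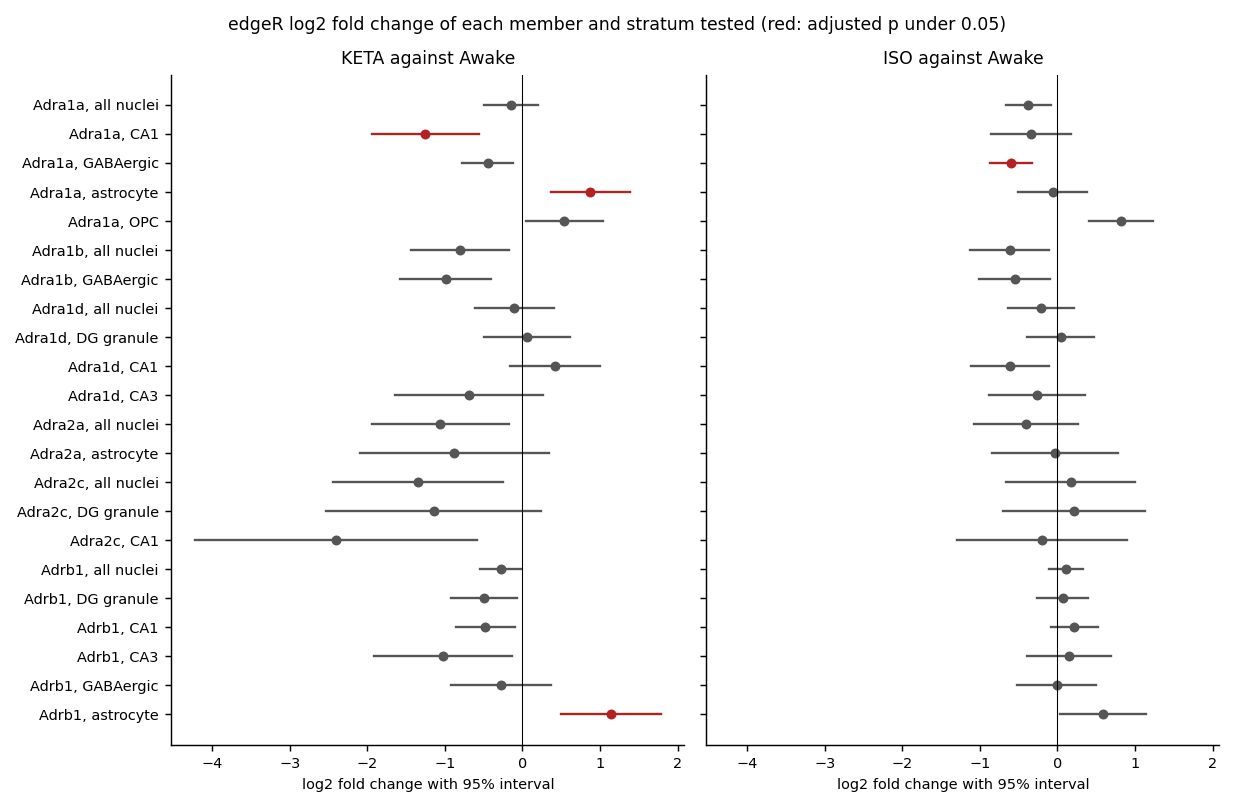
Fitted log2 fold changes with 95% intervals of the 22 combinations of member and stratum, for KETA against Awake and ISO against Awake, from edgeR on sums per mouse; red marks an adjusted p under 0.05. The called changes are Adra1a in CA1-like (-1.26) and astrocyte-like nuclei (0.87) and Adrb1 in astrocyte-like nuclei (1.14) for KETA, and Adra1a in GABAergic-like nuclei (-0.60) for ISO, while the interval of Adra2c in CA1-like nuclei for KETA (-4.23 to -0.59) is among the wide ones.

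Of the alpha1 receptors, Adra1a was lower in CA1-like and higher in astrocyte-like nuclei of KETA than of Awake mice. In CA1-like nuclei Adra1a stood at 14.3, 21.8 and 33.7 CPM (lowest, median and highest of 9 Awake mice), at 11.4, 19.1 and 30.2 CPM in 7 ISO mice and at 2.83, 8.61, 6.77 and 21.7 CPM in KETA mice 25 to 28, on 8, 29, 13 and 32 UMIs. KETA mice 25, 26 and 27 lay below every Awake mouse, mouse 28 lay inside the Awake range, and Awake mouse 29 of the same run was the highest Awake mouse. The level in KETA was 0.419 times that in Awake (log2 fold change -1.26, SE 0.33, 95% interval -1.94 to -0.57, adjusted p = 0.0215). Mouse 25, the lowest, is the library that stood apart in depth, and the part of depth in its value was not tested. Without KETA mouse 25 or 27 the call was lost (log2 fold changes -0.999 and -0.957, adjusted p = 0.124 and 0.149). It was also lost when each nucleus was classed by its own markers (-0.90, adjusted p = 0.155). Without mice 11, 14, 17 and 20 it held (-1.34, adjusted p = 0.0386).

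The CA1-like class joins clusters that differ in Adra1a. In cluster 14 (3321 nuclei, led by genes such as Rxfp1 and Rspo2, with its marker score of 1.26 just above the minimum set for a name) Adra1a stood at 52.4 ± 10.2 CPM in 7 Awake mice and 18.7 ± 9.25 CPM in 4 KETA mice, without overlap. The exact two-sided permutation p was 0.00303, the smallest this design allows, and 0.0182 adjusted over the 12 tests added after seeing the data. This test is not independent of the call in CA1-like nuclei, of which the cluster is a part. In 5 ISO mice Adra1a in cluster 14 ran from 29.9 to 39.5 CPM (median 33.4), overlapping only the bottom of the Awake range (37.1 to 68.1 CPM), and this was not tested. In cluster 2 (14716 nuclei) the means were 12.1 and 6.34 CPM (exact permutation p = 0.101, adjusted 0.152). Cluster 14 made up 17.8% to 31.5% of CA1-like nuclei in KETA and 0.541% to 27.2% in Awake mice. CA1 markers summed in CA1-like nuclei stood at 2016 to 2614 CPM in KETA, 2656 to 3534 in Awake and 2332 to 3577 in ISO mice, and their part in the result was not tested.

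In astrocyte-like nuclei Adra1a was higher in KETA. It stood at 45.7, 81.3 and 136.5 CPM in Awake (lowest, median, highest), at 65.1, 80.0 and 97.9 CPM in ISO and at 80.7, 162, 162.3 and 154.3 CPM in KETA mice 25 to 28. Mice 26 to 28 lay above every Awake and ISO mouse, mouse 25, which stood apart in depth, lay near the median of both, and Awake mouse 29 was at 101.6 CPM. The level was 1.83 times that in Awake (log2 fold change 0.87, SE 0.25, adjusted p = 0.0339) and 1.91 times that in ISO (0.93, SE 0.25, adjusted p = 0.0284). Against Awake the call was lost without mouse 2, 13, 26, 27 or 28 (log2 fold changes 0.60 to 0.93, adjusted p = 0.0506 to 0.217), without mice 1 to 4 (0.70, adjusted p = 0.0726), without mice 11, 14, 17 and 20 (adjusted p = 0.0792), with each nucleus classed by its own markers (0.80, adjusted p = 0.0595) and with only the states compared in the fit (adjusted p = 0.0539). Against ISO it was lost without mouse 4, 18, 26, 27 or 28 (0.67 to 0.98, adjusted p = 0.0501 to 0.179) and with each nucleus classed by its own markers (0.71, adjusted p = 0.0935). Astrocyte markers summed in this class ran from 7192 to 9455 CPM in KETA, 6644 to 8963 in Awake and 6253 to 8224 in ISO mice, and neuron markers from 1503 to 1675, 1493 to 1990 and 1453 to 2527 CPM. These ranges overlap.

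In GABAergic-like nuclei Adra1a was lower in ISO. It stood at 91.9, 143.5 and 188.6 CPM in Awake and at 74.6, 98.3 and 130.8 CPM in ISO mice (lowest, median, highest), a ratio of 0.658 (log2 fold change -0.60, SE 0.13, adjusted p = 0.0155). Only Awake mouse 29 (91.9 CPM) lay within the ISO range. In each of the 4 number runs that hold both states every ISO mouse lay below every Awake mouse, with 87.8 and 98.1 against 143.5 and 188.6 CPM in mice 1 to 4, 98.3 against 132.9 to 146.6 CPM in mice 10 to 13, 103.3 and 130.8 against 131.6 and 162 CPM in mice 14 to 17, and 114.9 and 74.6 against 155.5 CPM in mice 18 to 20. With these runs as a block the log2 fold change was -0.64 (adjusted p = 0.00162). The call was lost without mouse 2 or 3 (-0.54 and -0.51, adjusted p = 0.0543 and 0.0566), without mice 1 to 4 (-0.45, adjusted p = 0.169) and without mice 11, 14, 17 and 20 (-0.63, adjusted p = 0.0536). KETA mice stood at 93.6, 102.1, 91.0 and 119.7 CPM, beside 91.9 CPM in mouse 29 of their run (log2 fold change against Awake -0.45, adjusted p = 0.102).

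Of the 4 groups compared, the Lamp5 group carried the largest difference in CPM. Its Adra1a level was 281.9 ± 82.9 CPM in 7 ISO mice (202.9 to 436.6) and 470.1 ± 81.4 CPM in 9 Awake mice (327.1 to 609.5), with an exact permutation p of 0.00114 (adjusted 0.0136 over the same 12 added tests), and the ranges overlap. That test is not independent of the call in GABAergic-like nuclei, of which the group is a part. In 4 KETA mice it was 378 ± 64.0 CPM (exact permutation p = 0.0755, adjusted 0.130). The Sst, Cnr1/Cck and Pvalb groups gave exact permutation p-values of 0.0608, 0.0707 and 0.357 for ISO against Awake, and whether the groups differ in their response was not tested. The Lamp5 group made up 13.6% to 20.9% of GABAergic-like nuclei in Awake, 15.5% to 26.2% in ISO and 10.2% to 14.8% in KETA mice.

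**Figure D3:**
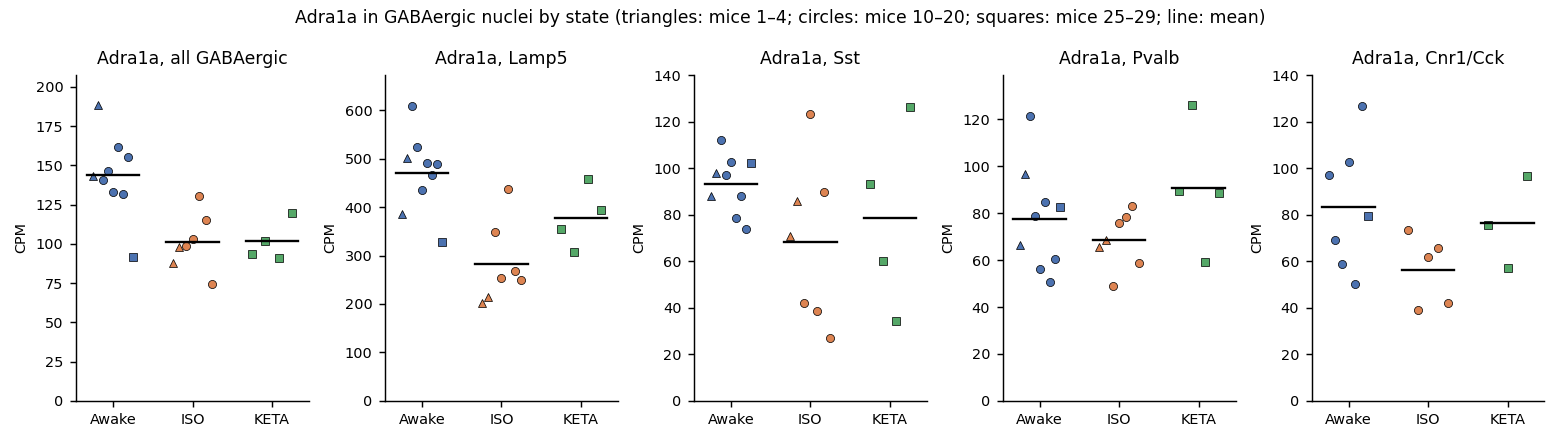
Adra1a level (CPM, linear axes) in all GABAergic-like nuclei and in 4 groups of them by state; each symbol is 1 mouse, triangles mice 1 to 4, circles mice 10 to 20 and squares mice 25 to 29. ISO mice in the first panel lie between 74.6 and 130.8 CPM and Awake mice between 91.9 and 188.6 CPM, and the Lamp5 panel is several times higher than the others.

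In OPC-like nuclei Adra1a stood at 56.1, 95.2 and 133 CPM in Awake (lowest, median, highest), 113.5, 173.9 and 241.6 CPM in ISO and 118.4, 98.1, 138.9 and 184.9 CPM in KETA mice. The ISO range began inside the Awake range, and the difference missed the threshold (log2 fold change 0.82, SE 0.20, adjusted p = 0.0661, where 0.554% of genes were called). It passed with DESeq2 (adjusted p = 0.0353), RLE factors (adjusted p = 0.0491), no low-count filter (adjusted p = 0.0148), Leiden resolution 2 (adjusted p = 0.0493) and state means without genotype (adjusted p = 0.0379), without mice 1 to 4 (1.02, adjusted p = 0.0475), with the number runs as a block (0.84, adjusted p = 0.0463) and without mouse 2, 3, 11 or 29 (0.86 to 0.96, adjusted p = 0.0211 to 0.0463).

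Adra1b in GABAergic-like nuclei stood at 14.5, 27.4 and 33.4 CPM in Awake, 12.2, 16.8 and 35.2 CPM in ISO and 11.8, 7.36, 18.5 and 11.2 CPM in KETA mice, with mouse 29 at 20.8 CPM. Mice 25, 26 and 28 lay below every Awake mouse. The difference of KETA from Awake missed the threshold (log2 fold change -0.99, SE 0.28, adjusted p = 0.0522) and passed it without mouse 4, 15, 17 or 29 (-0.99 to -1.11, adjusted p = 0.0334 to 0.0474), with DESeq2 (adjusted p = 0.0436), with doublets kept, at Leiden resolution 2, with at least 500 genes per nucleus and with state means without genotype. Adra1d in CA1-like nuclei was higher in KETA than in ISO mice, with 1.84, 2.90 and 4.85 CPM in ISO and 5.67, 4.45, 6.25 and 6.10 CPM in KETA mice, where only KETA mouse 26 (4.45 CPM) lay within the ISO range. Its level in KETA was 2.05 times that in ISO (log2 fold change 1.03, SE 0.29, adjusted p = 0.0336), while the Awake range of 2.79 to 6.19 CPM overlapped both. That call was lost without any single one of mice 3, 4, 15, 16, 25, 26, 27 or 28 (log2 fold changes 0.91 to 1.14, adjusted p = 0.0506 to 0.148), without mice 1 to 4 (0.87, adjusted p = 0.0866), without the low-count filter (1.01, adjusted p = 0.0881) and with only the states compared (adjusted p = 0.0827), and it had no value with each nucleus classed by its own markers. In cluster 2 alone the means were 6.85 and 4.09 CPM (exact permutation p = 0.0143, adjusted 0.0429), a test not independent of the call.

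The alpha2 receptors passed no test between states in the edgeR fit of all 20 mice, and their intervals were wide. Adra2c in all nuclei stood at 1.31, 3.26 and 8.45 CPM in Awake, 1.60, 4.64 and 9.67 CPM in ISO and 2.35, 2.36, 0.649 and 1.64 CPM in KETA mice. In such sums fewer cells of a type and less RNA per cell cannot be told apart. All KETA values lay at or below the Awake median, and mouse 29 of their run, at 1.63 CPM, lay among them. The log2 fold change of KETA against Awake was -1.35 (95% interval -2.45 to -0.25, adjusted p = 0.0959), and in CA1-like nuclei -2.41 (-4.23 to -0.59, adjusted p = 0.0797). Both passed the threshold with DESeq2. Against ISO the log2 fold changes were -1.52 in all nuclei (adjusted p = 0.0817) and -2.21 in CA1-like nuclei (adjusted p = 0.117), and both also passed with DESeq2, the first without mice 11, 14, 17 and 20 as well. Mice 1 to 4 stood at 5.96 to 9.67 CPM in all nuclei, where of the other mice only mouse 15 (7.96 CPM) was above 5.16 CPM, and in CA1-like nuclei at 20.7, 16.1, 18.9 and 8.67 CPM against 0.354 to 6.56 CPM in the other mice.

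Adra2a in all nuclei stood at 2.18, 1.79, 1.63 and 1.55 CPM in mice 1 to 4, at 1.81 CPM in mouse 10, at 0.592 CPM in mouse 29 and at 0.854, 0.519, 0.433 and 0.578 CPM in the KETA mice. Mouse 25 lay near the middle of the 20 mice and the other 3 KETA mice among the lowest, together with ISO mice 15 (0.511 CPM) and 18 (0.514 CPM). Of mouse 25's UMIs in all nuclei, 6 of 16 for Adra2a and 11 of 44 for Adra2c came from an unnamed cluster of 806 nuclei, 800 of them APP/PS1-KETA, led by genes such as Tpm2 and Dnase1l3. The log2 fold change of KETA against Awake was -1.06 (95% interval -1.95 to -0.18, adjusted p = 0.101), and in astrocyte-like nuclei -0.88 (-2.10 to 0.34, adjusted p = 0.351). ISO against Awake gave log2 fold changes of 0.17 for Adra2c in all nuclei, -0.20 for it in CA1-like nuclei, -0.40 for Adra2a in all nuclei and -0.04 for it in astrocyte-like nuclei (adjusted p = 0.534 to 0.98). Adra2b had 0 UMIs in 11 mice and 8 UMIs in mouse 14. Its mean of 0.0481 CPM in KETA and 0.0408 CPM in ISO against 0.0885 CPM in Awake gave exact two-sided permutation p-values of 0.703 and 0.498.

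**Figure D4:**
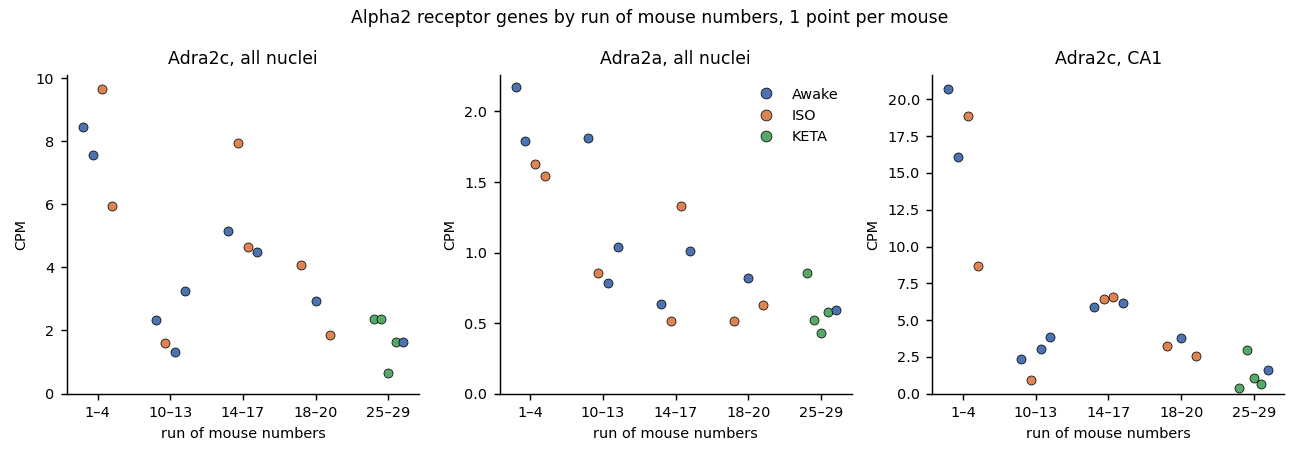
Adra2c in all nuclei, Adra2a in all nuclei and Adra2c in CA1-like nuclei (CPM, linear axes) by run of mouse numbers, 1 symbol per mouse, coloured by state. Mice 1 to 4 lie at 5.96 to 9.67 CPM for Adra2c in all nuclei in both of their states, with ISO mouse 15 (7.96 CPM) among them, and the KETA mice lie at 0.649 to 2.36 CPM, around Awake mouse 29 (1.63 CPM).

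The beta receptor rose in astrocyte-like nuclei of KETA mice and fell in CA1-like nuclei relative to ISO. In all nuclei Adrb1 ran from 13.31 to 15.53 CPM in KETA, 15.7 to 20.02 CPM in Awake and 16.35 to 25.29 CPM in ISO mice. The lowest Awake value, 15.7 CPM, was that of mouse 29 of the KETA run. There the difference of KETA from ISO missed the threshold (log2 fold change -0.39, adjusted p = 0.0656). It passed with DESeq2 and with state means without genotype. Against Awake the log2 fold change was -0.28 (adjusted p = 0.148). In astrocyte-like nuclei Adrb1 stood at 7.09, 23.5 and 41.6 CPM in Awake, 20.0, 33.7 and 51.1 CPM in ISO and 49.8, 53.4, 40.6 and 46.4 CPM in KETA mice. KETA mice 25, 26 and 28 lay above every Awake mouse, mouse 27 lay just inside their range, and mouse 29 was at 30.0 CPM. The level in KETA was 2.21 times that in Awake (log2 fold change 1.14, SE 0.31, adjusted p = 0.0297), and for ISO the log2 fold change was 0.59 (adjusted p = 0.208). The KETA call was lost without mouse 2 or any single KETA mouse (0.94 to 1.16, adjusted p = 0.0576 to 0.101) and without mice 11, 14, 17 and 20 (adjusted p = 0.0704). In CA1-like nuclei Adrb1 stood at 19.4, 23.4 and 31.7 CPM in ISO and 14.2, 11.3, 14.6 and 14.2 CPM in KETA mice, without overlap, and the Awake range of 15.1 to 26.1 CPM also lay above every KETA mouse. Mouse 29 was at 22.1 CPM there. KETA was 0.618 times ISO (log2 fold change -0.69, SE 0.19, adjusted p = 0.0288), and against Awake the log2 fold change was -0.48 (adjusted p = 0.0984). In CA3-like, DG granule-like and GABAergic-like nuclei the log2 fold changes against ISO were -1.17, -0.57 and -0.26, not called (adjusted p = 0.106 to 0.647). Against Awake they were -1.02, -0.50 and -0.27 (adjusted p = 0.108 to 0.621). In DG granule-like nuclei mouse 29, at 12.9 CPM, was the lowest Awake mouse and lay just above the KETA mice (up to 12.7 CPM). The call against ISO was lost without any single one of mice 3, 15, 18, 25, 26, 27 or 28 (-0.59 to -0.81, adjusted p = 0.0505 to 0.114) and without mice 1 to 4 (-0.65, adjusted p = 0.0513), and without the low-count filter (-0.72, adjusted p = 0.0502). In cluster 2, which holds most of these nuclei, the means were 12.4 and 21.6 CPM without overlap (exact permutation p = 0.00476, the smallest this design allows, adjusted 0.0190), a test chosen after seeing the data and not independent of the call. In cluster 14, which was not tested, KETA mice (11.9 to 24.6 CPM) overlapped both ISO (17.4 to 36.6 CPM) and Awake mice (8.97 to 39.5 CPM). In microglia-like nuclei, which were not tested, Adrb1 ranged from 19.3 to 63.5 CPM in 8 Awake, 43.2 to 129.9 CPM in 6 ISO and 39.6 to 77.5 CPM in KETA mice, and the ranges overlap.

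**Figure D5:**
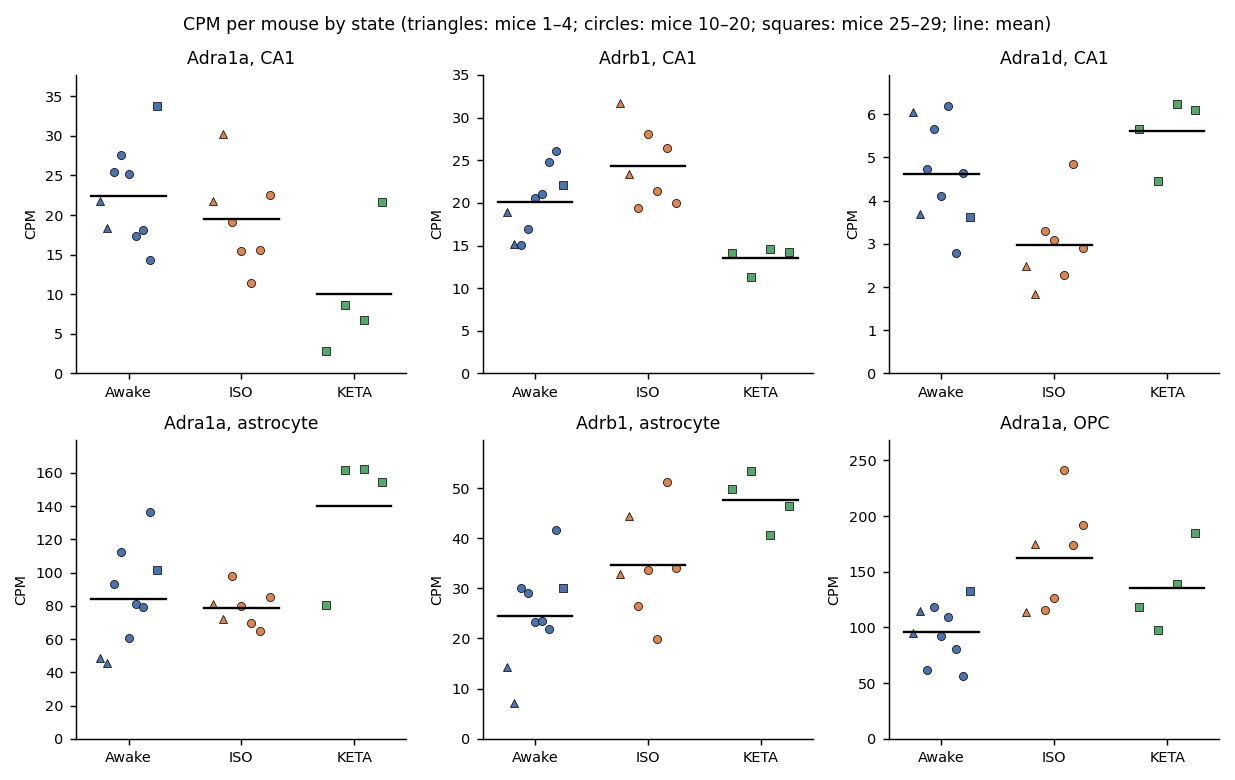
Levels (CPM, linear axes) of Adra1a, Adrb1 and Adra1d in CA1-like, Adra1a and Adrb1 in astrocyte-like and Adra1a in OPC-like nuclei by state; each symbol is 1 mouse, triangles mice 1 to 4, circles mice 10 to 20 and squares mice 25 to 29. In CA1-like nuclei the KETA values of Adrb1 (11.3 to 14.6 CPM) lie below all others, and in astrocyte-like nuclei those of Adra1a (80.7 to 162.3 CPM) and Adrb1 (40.6 to 53.4 CPM) lie mostly above the Awake mice.

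By labelled genotype, 0 of the 22 combinations were called between APP/PS1 and WT, against 0.0% of 106470 tests over all genes and 8 strata. DESeq2 also called 0 of the 22. Prnp was among the genes not called and 4 mice lay against their label, so these counts do not show that genotype has no effect. At an unadjusted p under 0.05 the members gave 0 of 22, and the share of all genes at that threshold is not given here. The log2 fold changes ran from -0.30 (Adra1a in OPC-like nuclei, 95% interval -0.69 to 0.08) to 0.37 (Adra2c in DG granule-like nuclei, -0.66 to 1.41). In all nuclei Adra1a stood at 28.0 ± 2.77 CPM in WT-Awake (n = 6), 28.7 ± 7.64 in APP/PS1-Awake (n = 3), 22.5 ± 2.35 in WT-ISO (n = 3) and 24.4 ± 4.72 in APP/PS1-ISO mice (n = 4). The 2 KETA mice of each label gave 29.9 ± 9.79 (WT) and 22.2 ± 6.26 CPM (APP/PS1). Effects of KETA and ISO did not pass a test of a difference between genotypes for any member either. In both tests 0 were called, against 0.0% of all genes at the same adjusted threshold. At an unadjusted p under 0.05 the members again gave 0 in both, with no share of all genes given. Adra1a in CA1-like nuclei was at 5.72 ± 4.08 CPM in APP/PS1-KETA and 14.2 ± 10.5 CPM in WT-KETA mice, a difference of fold changes of -0.98 on the log2 scale (adjusted p = 1).

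Genes of the signalling around the receptors were taken from 5 lists of 56 genes in all. Their median log2 fold change in all nuclei was -0.20 for KETA and -0.15 for ISO against Awake, beside -0.04 and -0.0028 over all genes tested. In KETA against Awake, 2 were higher and 5 lower of 54 tested in all nuclei, 1 and 6 of 50 in DG granule-like, 2 and 5 of 50 in CA1-like, 1 and 3 of 48 in GABAergic-like, 2 and 2 of 46 in astrocyte-like, 2 and 3 of 41 in oligodendrocyte-like, 0 and 1 of 48 in CA3-like and 0 and 0 of 40 in OPC-like nuclei. In ISO against Awake the counts were 1 higher and 3 lower, 0 and 2, 3 and 3, 0 and 3, 1 and 5, 3 and 1, 0 and 0, and 0 and 0 in the same order. In all nuclei 7 of 54 listed genes were thus called for KETA beside 12.4% of all genes, and 4 of 54 for ISO beside 6.27%. Downstream of alpha2 receptors, Gnao1, the main neuronal Gi/o subunit, fell by 0.79 on the log2 scale in DG granule-like (adjusted p = 0.00365) and by 0.46 in CA1-like nuclei (adjusted p = 0.0397) in KETA against Awake. Gnao1 was also lower in ISO than in Awake mice in CA1-like nuclei (log2 fold change -0.40, adjusted p = 0.0361) and all nuclei (-0.33, adjusted p = 0.0464). In oligodendrocyte-like nuclei it was higher in ISO (0.58, adjusted p = 0.00472). Downstream of alpha1 receptors, the store calcium channel Itpr2 rose in KETA in astrocyte-like (log2 fold change 0.55, adjusted p = 0.0317), oligodendrocyte-like (1.22, adjusted p = 0.0285) and all nuclei (0.45, adjusted p = 0.0429). In ISO it rose in oligodendrocyte-like nuclei (0.93, adjusted p = 0.0373). The kinase Prkca rose in astrocyte-like nuclei in ISO (1.35, adjusted p = 0.000235). Kcnj3, from the alpha2 list, fell in astrocyte-like nuclei in KETA (-1.47, adjusted p = 0.00528). Prkca was the only listed gene higher in astrocyte-like nuclei in ISO, and the 5 lower ones were the potassium channel Kcnj3 (-0.80, adjusted p = 0.0357), Gnao1 (-0.53, adjusted p = 0.0128), the adenylyl cyclases Adcy2 (-0.76, adjusted p = 0.00211) and Adcy8 (-0.89, adjusted p = 0.0411), and Maoa (-0.70, adjusted p = 0.0231), which degrades monoamines.

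Downstream of beta receptors, the adenylyl cyclase Adcy8 fell by 1.00 on the log2 scale in CA1-like (adjusted p = 0.00940) and by 0.87 in DG granule-like nuclei (adjusted p = 0.0110) in KETA and by 1.56 in DG granule-like nuclei in ISO (adjusted p = 0.000332). Among regulators of G protein signalling, Rgs4 fell by 2.21 in CA1-like nuclei in KETA (adjusted p = 0.00624), and Rgs8 fell by 1.20 in KETA and 1.13 in ISO in GABAergic-like nuclei (adjusted p = 0.0134 and 0.00375). Of the genes for making and clearing noradrenaline, Th, Dbh and Slc6a2 were near 0, with 34, 47 and 111 UMIs in all, while the vesicular transporter Slc18a2 had 5376 UMIs and rose against Awake in all nuclei both in KETA (log2 fold change 1.03, adjusted p = 0.0133) and in ISO (0.76, adjusted p = 0.0423). By class, Slc18a2 rose in KETA in astrocyte-like (log2 fold change 1.74, adjusted p = 0.0235) and GABAergic-like nuclei (1.31, adjusted p = 0.0317). It also rose there in DG granule-like (1.29, adjusted p = 0.0155) and CA1-like nuclei (1.09, adjusted p = 0.00821), and in ISO in CA1-like nuclei (0.96, adjusted p = 0.00714). Maob, which degrades monoamines, fell by 0.73 in astrocyte-like nuclei in KETA (adjusted p = 0.0258).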

How the data were processed

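Single nuclei RNA-sequencing of 20 mouse hippocampi, 1 library per mouse, was analysed. The authors deposited raw UMI counts for every gene in every nucleus, with no scaling, made per the labels and methods with Cell Ranger 5.0.0 on mm10 with introns counted. The methods also name CellBender, DoubletFinder, Harmony and MAST. The file headers name Cell Ranger only, so whether ambient RNA was removed from these counts is not known. The methods describe batches of 4, with a mouse of each awake and anesthetized group, but not which mice formed one, so runs of mouse numbers (1 to 4, 10 to 13, 14 to 17, 18 to 20, 25 to 29) stand in for them as an alternative. As labelled, run 10 to 13 holds 2 WT-Awake and no WT-ISO mice. Labels describe perfusion and the methods decapitation.

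The members, gene lists and tests were chosen with earlier results of these data known. Named genes are all 7 members, for each with at least 500 UMIs the genes most alike over classes, label and state checks, and, as examples, called genes of the fixed lists. Nuclei under 200 genes were to be removed (0 were). Nuclei were clustered on 2000 variable genes without the members (30 principal components, 20 neighbours, Leiden resolution 1; leidenalg 0.10.2, scikit-learn 1.9.0, Python 3.11.15). Simulated pairs marked 10844 doublets (6.74%). Clusters were named from markers, with at least 3 detected, and 82.5% of nuclei fell in a class. A minimum marker score added after the clusters were seen kept 3 clusters out of their closest class. In the order WT-Awake, APP/PS1-Awake, WT-ISO, APP/PS1-ISO, WT-KETA and APP/PS1-KETA, the one closest to fibroblasts held 0.552%, 0.0121%, 0%, 0.00567%, 2.42% and 7.99% of nuclei, the one closest to CA3 0.732%, 1.40%, 0%, 1.48%, 0.0278% and 0%, and the one closest to oligodendrocytes 0.101%, 1.03%, 0%, 0.326%, 0% and 0%. DG granule-like nuclei lay mostly in one cluster outside KETA and in another in KETA.

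Counts summed per mouse were tested with edgeR 4.0.16 in R 4.3.3 (TMM, filterByExpr, quasi-likelihood, 6 group means, contrasts averaged over the other factor) on 7575 to 20540 genes per stratum. A class with under 50 nuclei in a mouse was left out for that mouse. CPM is the usual scaling of a gene's UMIs to the total UMIs of the class in that mouse. Level orders and single values used two-sided permutation tests, with 100000 resamples where exact enumeration was not used. The fits were tested on simulated data. The alternatives were DESeq2 1.42.0, other size factors (RLE), no filter, doublets kept, Leiden resolution 2, classing each nucleus by its own markers, at least 500 genes, number runs as a block, only the states compared, leaving out mice 1 to 4 or each mouse. State means without genotype, leaving out mice 11, 14, 17 and 20, and tests within clusters and GABAergic groups were chosen after seeing the data.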

Additional observations from a re-analysis of the deposited data

Results flagged for a closer look

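Adra2a in all nuclei stood at 2.175 CPM in WT-Awake mouse 1 against 0.592 to 1.04 CPM in the other 5 WT-Awake mice, and Adra2c in CA1-like nuclei at 20.68 CPM in the same mouse against 1.61 to 5.88 CPM. In both a single mouse lay far from its group. These were 2 of 44 groups examined, and chance marks about 1 in 20. Mouse 1 is among mice 1 to 4, which stood apart in mitochondrial share, and the part of this in the values was not tested.

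Receptor transcripts also appeared in nuclei of no named class, which entered the comparisons in all nuclei but no comparison of a class. The unnamed cluster led by Slc47a1 and Cdh1 held Adra1b at 53.21 CPM. The unnamed cluster led by Klhl1 and Slc17a6 held Adra1b at 17.66 CPM and Adra2b at 1.488 CPM. These values lie above what a count of 0 allows and come from pooled nuclei with no test.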

How the results depend on the processing

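Of the member calls in KETA against Awake, ISO against Awake and KETA against ISO (3, 1 and 3), DESeq2 made 6, 2 and 6 and the number-run block 1, 2 and 0, where KETA is set against Awake mouse 29 alone within its run. RLE size factors gave 2 for ISO against Awake, as did Leiden resolution 2 and state means without genotype (the last chosen after seeing the data). Without the low-count filter the counts were 2 for ISO against Awake and 1 for KETA against ISO. Classing each nucleus by its own markers gave 3 for KETA against Awake, of which 1 was shared (Adra1a in CA1-like and astrocyte-like nuclei were lost, Adrb1 in CA1-like and DG granule-like nuclei were gained), and 1 for KETA against ISO, and only 3 of 6 members kept their highest class, with Adra1a then highest in GABAergic-like nuclei (122.5 CPM against 103.1 in OPC-like), as it also was with doublets kept (115.8 against 103.9). Without mice 1 to 4 KETA against ISO gave 1, and the ISO call was Adra1a in OPC-like in place of GABAergic-like nuclei. Leaving out each mouse gave 0 to 5, 1 to 3 and 0 to 3 calls, with 0 in KETA against Awake without mouse 27 and 5 without mouse 17 or 29. Genotype gave 0 under every alternative run, and the main fit called no gene at all for it, Prnp included. The Adra2b difference of KETA from Awake ran from -0.0885 to 0.00127 CPM over left-out mice and turned positive without WT-Awake mouse 14. The cause of these shifts was not tested. With 4 KETA mice and under 2000 UMIs each for Adra1b, Adra1d and the alpha2 genes, depth and group size limit what these comparisons could detect.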
